A study of Mus musculus with 6 samples.

Results

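The angiopoietin and Tie genes were examined in bone endothelial cells (BECs) of 12-week-old mice. Members were taken by name, 7 of the 37991 genes in the deposited count table, and all 7 were present and tested: the receptor genes Tie1 and Tek, the ligand genes Angpt1, Angpt2 and Angpt4, the phosphatase gene Ptprb and the matrix gene Svep1. The libraries came from wild-type c57/Bl6 mice (C57BL/6J in the methods), 3 from females and 3 from males, with no treatment or transgene given for either sex. The cells came from the tibia per the labels, from tibiae and femurs per the methods, and were selected through endomucin, a surface sialomucin of capillary and venous endothelium. The methods also kept the 3 samples of best RNA quality in a set. Neither the labels nor the methods say whether a library came from 1 animal or from pooled animals, and p-values measure the spread between these libraries. The comparison asks which members differed between male and female BECs.

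The angiopoietin-Tie system sets how quiescent or how responsive a vessel is. Angpt1, mostly made by perivascular and stromal cells, activates the receptor tyrosine kinase Tie2, encoded by Tek, on endothelial cells. Angpt2, released by endothelial cells themselves, acts as an antagonist or a weak agonist depending on context. Tie1 is a related receptor that modulates Tie2, and the phosphatase encoded by Ptprb, VE-PTP, removes phosphate from Tie2 and from VE-cadherin complexes. In bone marrow, stromal Angpt1 and Tie2 on sinusoidal endothelium are known as part of the vascular niche.

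Female libraries held 47678806 to 58325745 counts and male libraries 49236654 to 50406097. Levels are given in CPM, counts relative to the library total after TMM scaling, on which 3 counts corresponded to 0.0477 to 0.0639 CPM. The label of the cells was checked with 20 endothelial marker genes other than the members, among them Cdh5, Pecam1, Emcn, Kdr and Plvap. None of the 20 was at 0 in any library, and their summed level was 453 to 645 CPM in females and 277 to 418 CPM in males. The 12 neutrophil markers summed to 19110 to 23373 CPM in females and 32511 to 44298 CPM in males, far above the endothelial sum in every library. Of the 12, 9 had an unadjusted p under 0.05 in edgeR, all higher in males, where 5.03% of all genes were. The 6 macrophage markers summed to 3188 to 3558 CPM in females and 2133 to 2864 CPM in males. In such bulk samples, fewer cells of a type and less RNA per cell cannot be told apart.

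The sequences before the RefSeq start sites of Tie1 and Tek, genes of receptors of one family, are shown as a description. A link between these sequences and the levels in the libraries was not tested. RefSeq promoters on GRCm38.p6 were found for 4 of the 7 members, and the 250 bases before the start are printed 5′ to 3′ on the strand of the gene. Capitals mark the letters AGGAAG or CGGAAG on either strand, a core bound by ETS factors, the family of Erg and Fli1 in endothelium.
Tie1, chr4:118489850-118490099, minus strand: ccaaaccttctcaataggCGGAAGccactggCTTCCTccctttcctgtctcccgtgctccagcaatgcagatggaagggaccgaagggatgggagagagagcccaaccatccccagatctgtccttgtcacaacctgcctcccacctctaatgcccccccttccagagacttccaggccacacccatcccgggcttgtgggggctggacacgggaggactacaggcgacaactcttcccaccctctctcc
Tek, chr4:94739039-94739288, plus strand: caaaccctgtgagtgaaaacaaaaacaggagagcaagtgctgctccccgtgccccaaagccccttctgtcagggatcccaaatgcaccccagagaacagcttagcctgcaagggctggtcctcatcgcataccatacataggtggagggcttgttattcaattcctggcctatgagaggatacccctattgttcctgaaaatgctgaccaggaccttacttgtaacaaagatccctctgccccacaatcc

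The Tie1 window held 2 such matches, and the Tek window held none. The windows of Angpt4 and Svep1 each held 2 as well. Among the 32851 promoter windows of the same length, 39.2% held at least 1 match and 11.3% held 2 or more. The letters GTAAACA of FOX factors and AGATAA of GATA factors, searched on both strands, were in none of the 4 windows, against 3.17% and 9.99% of all windows. CCACCC, letters bound by KLF factors, occurred once in the Tie1 window and in 28.1% of all windows. Other start sites of these genes were not examined.

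Compared per kilobase of exon, Tie1 had the highest level of the 7 genes, with 3.52 ± 0.911 CPM per kb (SD, n = 3) among females and 2.24 ± 0.0453 (SD, n = 3) among males. In females, Angpt1 followed with 1.92 ± 0.882 CPM per kb (SD, n = 3), Tek with 1.56 ± 0.597 and Angpt4 with 1.23 ± 0.188. Ptprb had 0.804 ± 0.343 CPM per kb, Angpt2 0.509 ± 0.180 and Svep1 0.507 ± 0.174. The ranges of every pair of neighbours in this order overlapped among the females. In males, Tie1 stood apart from Angpt1 (1.39 ± 0.325 CPM per kb), and the ranges of all later neighbours overlapped. The male order placed Angpt4 (0.886 ± 0.384 CPM per kb) above Tek (0.603 ± 0.245), and did so in all 3 male libraries. Ptprb had 0.340 ± 0.113 CPM per kb in males, Angpt2 0.305 ± 0.0319 and Svep1 0.300 ± 0.0833. The order depended on the length used. Per kb of the longest annotated transcript, the male ranges of Tie1 (2.43 to 2.53 CPM per kb) and Angpt1 (1.62 to 2.58) overlapped, and Angpt1 was above Tie1 in female replicate 1 (4.60 against 4.43) and male replicate 1 (2.58 against 2.46). Angpt2 and Svep1 also exchanged the last places in the mean over all libraries, and Svep1 was above Ptprb in the male mean.

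**Figure D1:**
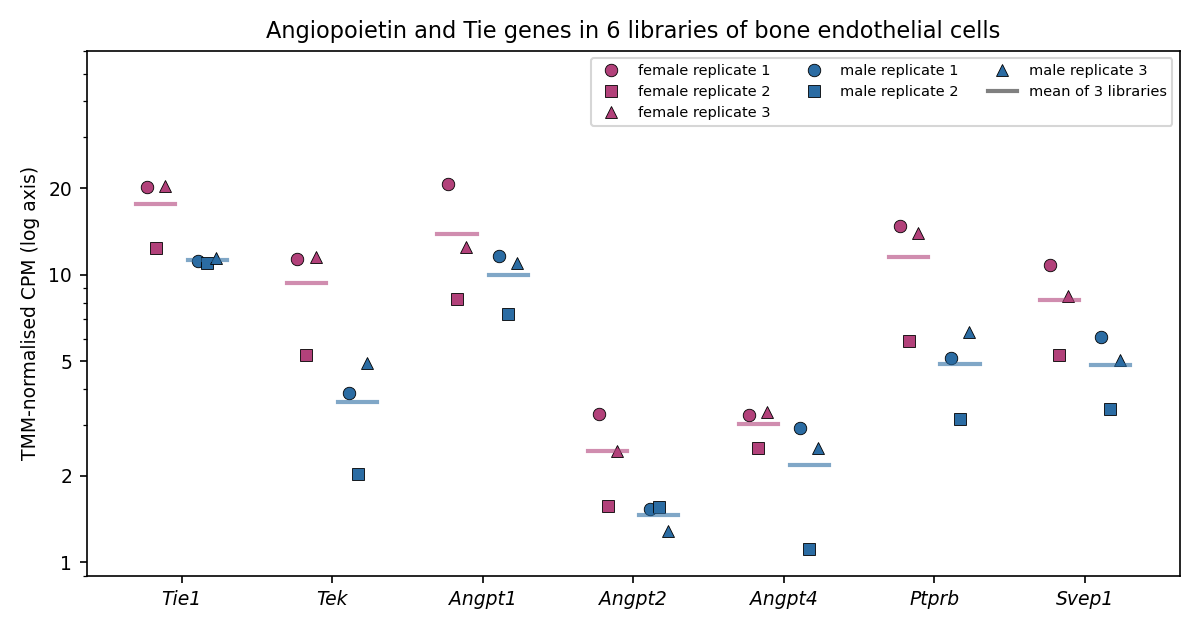
Level of each angiopoietin and Tie gene in TMM-normalised CPM on a log axis. Points are single libraries, with circles, squares and triangles for replicates 1, 2 and 3, and bars are means of 3 libraries. Female replicate 2 (squares) was the lowest female library for all 7 genes, and male replicate 2 was the lowest of the 6 libraries for 6 of them.

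Tek (ENSMUSG00000006386), the gene of Tie2, lies on chromosome 4 of GRCm39 from 94627291 to 94763224. Female libraries 1, 2 and 3 had 11.4, 5.24 and 11.5 CPM and male libraries 3.89, 2.03 and 4.93 CPM. Every male library was below every female library, but female replicate 2 lay close to male replicate 3. The female mean was 2.59 times the male mean. Fitted with edgeR's quasi-likelihood test, the log2 fold change of males over females, called log2FC below, was -1.37 with an SE of 0.373 and an adjusted p of 0.253. In DESeq2's Wald test, the tool named in the study's methods, its adjusted p was 0.00788.

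Tie1 (ENSMUSG00000033191), on the same chromosome from 118328385 to 118347261, had 20.1, 12.3 and 20.3 CPM in females and 11.2, 11.02 and 11.5 CPM in males. The male libraries were nearly equal, and all lay below female replicate 2, the lowest female. Its log2FC was -0.65 (SE 0.199, edgeR adjusted p = 0.316), against -1.37 for Tek, and DESeq2 gave an adjusted p of 0.0934.

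Ptprb (ENSMUSG00000020154), whose product VE-PTP dephosphorylates Tie2, lies on chromosome 10 from 116111428 to 116225440. It had 14.7, 5.86 and 14.0 CPM in females and 5.14, 3.15 and 6.35 CPM in males. Here male replicate 3 exceeded female replicate 2, so the sexes overlapped. Its log2FC was -1.24 (SE 0.360, edgeR adjusted p = 0.288), and the adjusted p from DESeq2 was 0.0179.

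Of the ligands, Angpt1 (ENSMUSG00000022309) on chromosome 15 (42288058 to 42540417) had 20.7, 8.23 and 12.5 CPM in females and 11.6, 7.29 and 10.96 CPM in males. The sexes overlapped, with female replicate 1 far above the other libraries. Its log2FC was -0.47 (SE 0.311, edgeR adjusted p = 0.661), and it was -0.047 without female replicate 1 and -0.74 without female replicate 2. Angpt4 (ENSMUSG00000027460), a ligand of Tie2 on chromosome 2 (151753127 to 151787257), had 3.24, 2.50 and 3.34 CPM in females and 2.92, 1.12 and 2.51 CPM in males. Male replicate 2 was low and the other libraries overlapped, with a log2FC of -0.47 (SE 0.363, edgeR adjusted p = 0.720). It was -0.16 without male replicate 2 and -0.74 without male replicate 1.

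Angpt2 (ENSMUSG00000031465), on chromosome 8 from 18739202 to 18791603, had 3.29, 1.57 and 2.45 CPM in females and 1.54, 1.56 and 1.29 CPM in males. The sexes did not overlap, but female replicate 2 and male replicate 2 were nearly equal. Its log2FC was -0.74 (SE 0.338, edgeR adjusted p = 0.512), and without female replicate 1 it was -0.45. Angpt2 lies inside Mcph1 on the opposite strand, and 3387 of its exon bases are also exonic in Mcph1. Whether reads were counted by strand is not given in the sources used here, so the counts of Angpt2 are uncertain. Mcph1 itself had a log2FC of 0.095 (SE 0.183).

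Svep1 (ENSMUSG00000028369), the gene of a large matrix protein that binds Tie1, lies on chromosome 4 from 58042442 to 58206859. It had 10.8, 5.24 and 8.44 CPM in females and 6.07, 3.41 and 5.04 CPM in males. Female replicate 2 lay within the male range, and the log2FC was -0.75 (SE 0.302, edgeR adjusted p = 0.449). Without female replicate 1 it was -0.49.

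Counted over the members, 0 of 7 passed an adjusted p of 0.05 in edgeR's quasi-likelihood test, where 0.0411% of the 19480 genes tested passed in either direction. At an unadjusted p under 0.05, 4 of 7 were lower in males (Tie1, Tek, Ptprb and Svep1) and 0 were higher, against 4.76% and 5.03% of all genes. The sexes did not overlap for 3 of 7 (Tie1, Tek and Angpt2), lower in males, as for 7.29% of all genes. All 7 fitted log2FC values were below 0, as were 50.2% of those of all genes, and their median was -0.74 against -0.0012 over all genes. Without female replicate 1 the median of the members was -0.49. DESeq2's Wald test passed 2 of 7, Tek and Ptprb, both lower in males, where 1.31% of its 26997 genes passed in either direction and 0.478% lower in males. The counts moved most with female replicate 2. Without it, all 7 members were lower in every male than in every remaining female library, as were 12.7% of all genes, and 6 of 7 had an unadjusted p under 0.05 in edgeR lower in males, where 878 of 20021 genes did. With any other library left out, that last count was 3 or 4, where 424 of 19932 (without male replicate 2) to 1550 of 19925 genes (without male replicate 3) did.

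**Figure D2:**
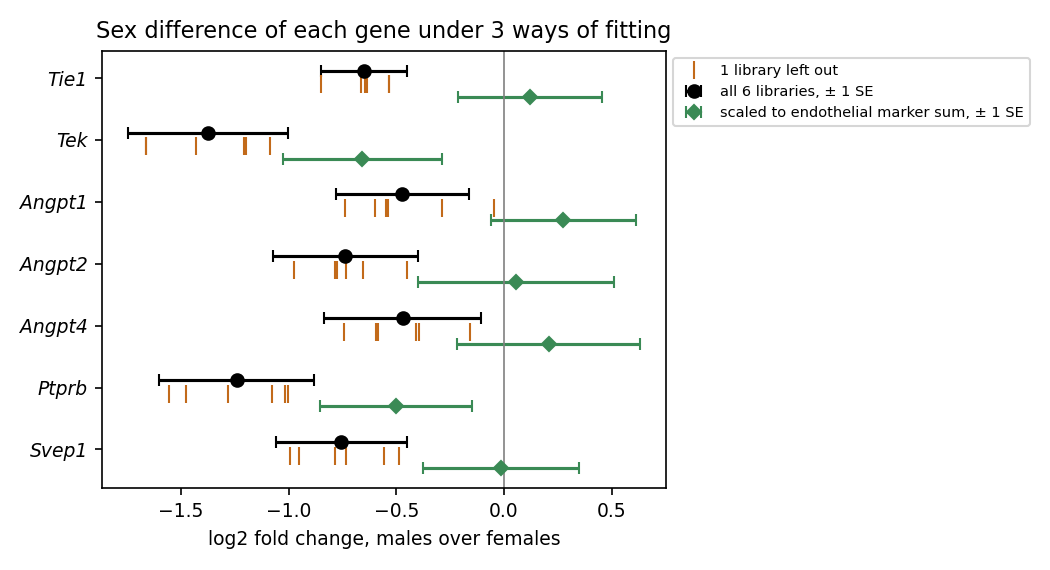
Log2 fold change of males over females for each gene. Black circles are the fit to all 6 libraries with 1 standard error, orange ticks the fits with 1 library left out, and green diamonds the fit scaled to the endothelial marker sum with 1 standard error. Every black circle and orange tick lies below 0, from -1.37 for Tek to -0.47 for Angpt1 and Angpt4 among the circles, and 4 diamonds lie above 0.

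The members were next set beside the endothelial content of each library. By fitted value 20 of 20 endothelial markers were themselves lower in males, against 50.2% of all genes, with a median log2FC of -0.89. At an adjusted p under 0.05 in edgeR 0 of 20 passed, where 0.0411% of all genes did in either direction. At an unadjusted p under 0.05, 13 of 20 were lower in males, against 4.76% of all genes. Per 100 counts of these markers, Tek had 1.80, 1.16 and 1.79 counts in females and 1.09, 0.733 and 1.18 in males. On this scale male replicate 3 exceeded female replicate 2, and the sexes overlapped for each of the 7 members. Ptprb had 2.33, 1.29 and 2.17 counts per 100 in females and 1.44, 1.14 and 1.52 in males. Tie1 had 3.18, 2.72 and 3.15 in females and 3.13, 3.98 and 2.74 in males, its highest value being that of male replicate 2.

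With the library size replaced by the endothelial marker sum, the median log2FC of all genes moved to 0.72, and the values of the members are read relative to the endothelial markers. On this scale log2FC was -0.66 (SE 0.369) for Tek and -0.50 (SE 0.354) for Ptprb. It was -0.014 for Svep1, 0.055 for Angpt2, 0.12 for Tie1, 0.21 for Angpt4 and 0.28 for Angpt1, each smaller in size than its SE of 0.334 to 0.455. None of the 7 had an adjusted p under 0.05 on this scale in edgeR, the lowest being 0.125 for Tek, and 0 had an unadjusted p under 0.05. Over all 19480 genes, 5037 passed on this scale, 5011 of them higher in males. At an unadjusted p under 0.05 in edgeR, 9816 were higher in males and 46 lower. The median of the 7 members was 0.055. Another marker set shifts all members by the same amount. Relative to Cdh5, Pecam1 and Emcn alone, the log2 difference was -0.96 for Tek, -0.77 for Ptprb, -0.31 for Svep1, -0.26 for Angpt2, -0.19 for Tie1, -0.16 for Angpt4 and 0.021 for Angpt1. Pecam1 made up most of that sum, with a mean of 92.2 CPM in females and 78.6 CPM in males. Cdh5 had 26.5 and 11.8 CPM, and Emcn 8.19 and 4.67 CPM. Single markers also differed from their sum. On the TMM scale, Stab2 and Pecam1, the markers with the highest CPM, had a log2FC of -0.69 and -0.23, whereas Flt4, Kdr, Mmrn2 and Eng, the markers with the lowest values, had -1.44, -1.41, -1.29 and -1.24, beside -1.37 for Tek.

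Ratios between members within a library do not depend on how libraries are scaled. They can depend on the mix of cells, so they are not a balance within 1 cell type. The median log2FC was -0.43 for reticular stromal markers and -0.89 for endothelial markers, and the part of this in the ratios was not tested. The ratio of Angpt1 to Tek, ligand over receptor in counts per kb of exon, was 1.52, 1.31 and 0.902 in females and 2.50, 3.00 and 1.86 in males. All 3 male libraries were above all 3 female libraries. The log2 ratio differed by 0.98 between the means of the sexes. A two-sided exact permutation test gave p = 0.1, the lowest value possible for 3 against 3, and 0.333 after adjustment over the 5 ratios examined. Leave-one-out differences lay between 0.77 and 1.17. The ratio of Tek to Tie1 was 0.471, 0.354 and 0.473 in females and 0.290, 0.153 and 0.358 in males. Male replicate 3 just exceeded female replicate 2, and the log2 difference was -0.77 (exact permutation test, p = 0.2, adjusted 0.333). Without male replicate 2 it was -0.41.

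The ratio of Ptprb to Tek was 0.543, 0.469 and 0.508 in females and 0.554, 0.649 and 0.539 in males. Of the males, replicate 3 alone was below the highest female library, with a log2 difference of 0.19 (exact permutation test, p = 0.2, adjusted 0.333) that was 0.11 without male replicate 2. The ratio of Angpt2 to Tek was 0.363, 0.375 and 0.266 in females and 0.495, 0.965 and 0.327 in males, and the sexes overlapped (log2 difference 0.70, exact permutation test, p = 0.3, adjusted 0.375). Without male replicate 2 this difference was 0.28, and without male replicate 3 it was 1.06. The ratio of Angpt2 to Angpt1, antagonist over agonist, was 0.239, 0.286 and 0.295 in females and 0.198, 0.322 and 0.176 in males. These also overlapped, with a log2 difference of -0.28 (exact permutation test, p = 0.4, adjusted 0.4) that was -0.54 without male replicate 2 and -0.11 without male replicate 3.

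**Figure D3:**
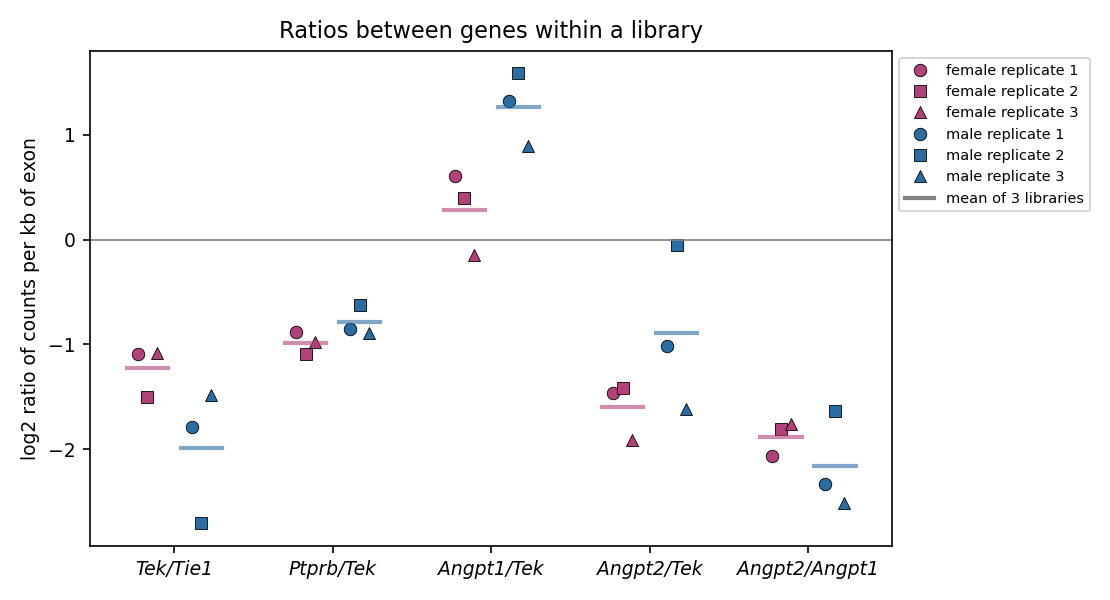
Log2 ratio of counts per kb of exon for 5 pairs of genes. Points are single libraries, with the same shapes for replicates as in the plot of levels, and bars are means of 3 libraries. For Angpt1/Tek the males lie between 0.89 and 1.59 and the females between -0.15 and 0.61, and the other 4 ratios overlap.

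The genes most like Tek and Tie1 were sought among 12676 protein-coding genes by the root mean square difference between log2 profiles centred on their mean over the 6 libraries. Closest to Tek were Cdh5 (0.0958), the gene of VE-cadherin, Adgrg6 (0.105), Eng (0.128), an endothelial TGF-beta co-receptor, the member Ptprb (0.140) and Hspg2 (0.148), the basement membrane proteoglycan perlecan. Cdh5 had 31.2, 15.8 and 32.6 CPM in females and 12.6, 6.50 and 16.1 CPM in males, and unlike for Tek the sexes overlapped. Closest to Tie1 were Grb10 (0.0697), Epb41l4b (0.0715), Phex (0.0756), Ryk (0.0783) and Nynrin (0.0892), of which none is on the endothelial list. Tek and Tie1 differed by 0.543 on this measure, which put Tie1 at place 484 of the 12676 genes in likeness to Tek, and Tek at place 10674 in likeness to Tie1. The measure counts the size of the swings as well as their direction, so these places do not compare shape alone. Tek and Tie1 ordered the 6 libraries alike, with female replicate 3 highest and male replicate 2 lowest. Angpt2 was the member closest to Tie1 (0.171).

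The profiles of the members were also set beside the mean profiles of marker lists for 9 cell types, a description chosen after the values were seen. The nearest list was endothelial for Tek (0.298) and Ptprb (0.235), reticular stromal for Angpt1 (0.232), Svep1 (0.184) and Angpt4 (0.289), and mural for Tie1 (0.184) and Angpt2 (0.263). The difference between Tie1 and the endothelial list was 0.297. The mural list mixes directions, with 5 of its 7 markers lower in males by fitted value and 2 higher, whereas all 20 endothelial markers were lower. Its mean profile therefore swings less, and the measure counts the size of the swings. A nearest list does not assign a member to a cell type. The 9 reticular stromal markers, led by Cxcl12, the chemokine of marrow niche cells, and including Lepr, summed to 4023, 2257 and 4132 CPM in females and 2368, 1589 and 3327 CPM in males. Both this sum and Angpt1 were lowest in male replicate 2 and next lowest in female replicate 2. The 5 megakaryocyte markers, led by Ppbp and Pf4, summed to 187, 48.2 and 112 CPM in females and 76.0, 35.6 and 97.8 CPM in males, and female replicate 1 was highest there, as for Angpt1. The 7 mural markers summed to 52.3 to 96.0 CPM in females and 43.9 to 74.4 CPM in males, and the 6 stem and progenitor markers to 39.3 to 65.9 and 29.4 to 41.6 CPM. The 5 erythroid markers (320 to 490 and 323 to 632 CPM) and the 4 B cell markers found (2029 to 2465 and 2080 to 2431 CPM) overlapped between females and males. No marker of these 9 lists was at 0 in any library, and the part of these cells in the levels of the members was not tested.

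**Figure D4:**
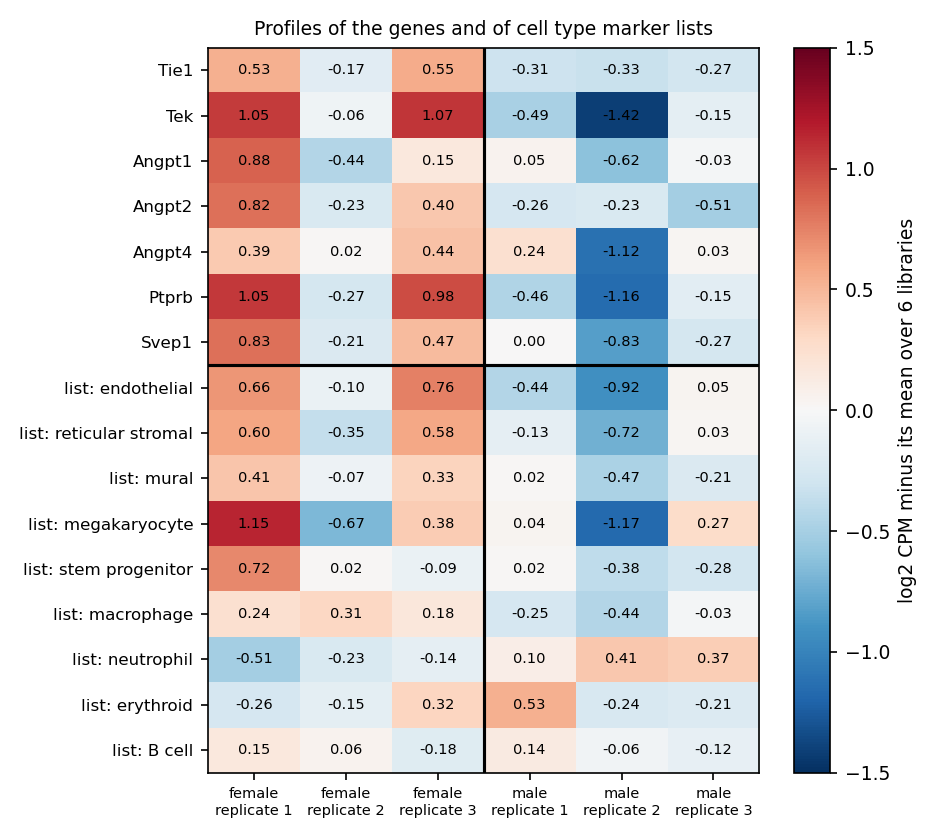
Log2 CPM of each gene, and mean of each marker list, minus its own mean over the 6 libraries, with libraries in columns. Red is above and blue below the mean. Tek runs from 1.07 in female replicate 3 to -1.42 in male replicate 2, while the 3 male values of Tie1 lie between -0.33 and -0.27.

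The other genes of the pathway were taken from 4 lists, of which 51 genes were tested. With TMM, 9 of the 51 had an unadjusted p under 0.05 in edgeR lower in males and 1 higher, against 4.76% and 5.03% of all genes. With the endothelial marker sum as library size, which shifts genes upward together (median of all genes 0.72), 0 were lower and 23 higher, where 9816 of all 19480 genes were higher. At an adjusted p under 0.05 in edgeR, 4 of the 51 passed on that scale, where 5037 of all genes did. The values that follow are with TMM. Of 11 surface partners and sheddases, which include integrins that bind angiopoietins and the VE-cadherin complex, 0 passed an adjusted p of 0.05 in edgeR, 6 had an unadjusted p under 0.05, all lower in males where 4.76% of all genes were, and the median log2FC was -0.38. Among them, Jup, the gene of plakoglobin, averaged 114 ± 6.36 CPM in females and 81.6 ± 7.37 CPM in males (SD, n = 3 each, log2FC -0.48, edgeR adjusted p = 0.198). Itgb1, the shared beta chain of Tie2-binding integrins and the partner with the highest level per kb, averaged 153 ± 13.9 and 113 ± 12.7 CPM (SD, n = 3 each, log2FC -0.43, edgeR adjusted p = 0.298). Itga9, the alpha chain of a receptor for Svep1, had a log2FC of -0.43 (edgeR adjusted p = 0.315), and Cdh5 had -1.17 (edgeR adjusted p = 0.336). In DESeq2 the adjusted p was 0.0138 for Cdh5 and 0.0398 for Jup.

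Of 24 adaptors and effectors inside the cell, 0 passed in edgeR, and the median log2FC was -0.066. In each direction 1 had an unadjusted p under 0.05, a share similar to that of all genes (4.76% lower and 5.03% higher in males). Ptk2, the gene of focal adhesion kinase, averaged 19.1 ± 3.07 CPM in females and 12.4 ± 2.54 CPM in males without overlap (SD, n = 3 each, log2FC -0.62, edgeR adjusted p = 0.308). Mapk3, the gene of the kinase ERK1, averaged 88.2 ± 8.91 and 107 ± 0.798 CPM (SD, n = 3 each, log2FC 0.28, edgeR adjusted p = 0.456). Pik3cb, a catalytic subunit of PI3-kinase, had a log2FC of 0.25 (edgeR adjusted p = 0.575). Grb2, the adaptor with the highest level per kb, averaged 260.3 ± 35.7 CPM in females and 256 ± 8.49 CPM in males (SD, n = 3 each).

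Of 10 transcription factors linked to the expression of Tie and angiopoietin genes, 0 passed in edgeR. At an unadjusted p under 0.05, 1 was lower in males, where 4.76% of all genes were: Epas1, the gene of HIF-2 alpha. It had 98.1, 67.5 and 101 CPM in females and 40.7, 39.3 and 54.9 CPM in males, with no overlap. Its log2FC was -0.98 (SE 0.182, edgeR adjusted p = 0.0859), and DESeq2 gave an adjusted p of 1.44e-04. Without male replicate 3 the edgeR adjusted p was 0.0350. For Klf2, the flow-responsive factor with the highest level per kb of this list, log2FC was 0.042 (edgeR adjusted p = 0.958). Gata2, a factor of endothelial and blood progenitor cells, had -0.21 (edgeR adjusted p = 0.744) and the ETS factor Etv6 -0.11 (edgeR adjusted p = 0.799). Gata2 had -0.32 without female replicate 2, and Etv6 between -0.17 and -0.032 with 1 library left out. The median of the 10 was -0.066.

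Angiopoietin-like genes encode secreted proteins related to the ligands that do not act as classical Tie ligands. Of 7, 6 were tested, since Angptl8 was too low, and 0 passed in edgeR. Angptl1 averaged 3.35 ± 0.970 CPM in females and 1.79 ± 0.251 CPM in males without overlap (SD, n = 3 each, log2FC -0.90, edgeR adjusted p = 0.370), the 1 gene of the list with an unadjusted p under 0.05. At that threshold 4.76% of all genes were lower in males. Angptl4, a lipase inhibitor and the list's highest per kb, averaged 11.1 ± 3.61 and 11.2 ± 0.614 CPM (SD, n = 3 each). Angptl2 had a log2FC of -0.70 (edgeR adjusted p = 0.632) and Angptl7 of -0.46 (edgeR adjusted p = 0.702). Angptl2 had -0.28 without female replicate 1 and -1.06 without female replicate 2. Angptl7 had -0.25 without male replicate 2 and -0.69 without male replicate 1.

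**Figure D5:**
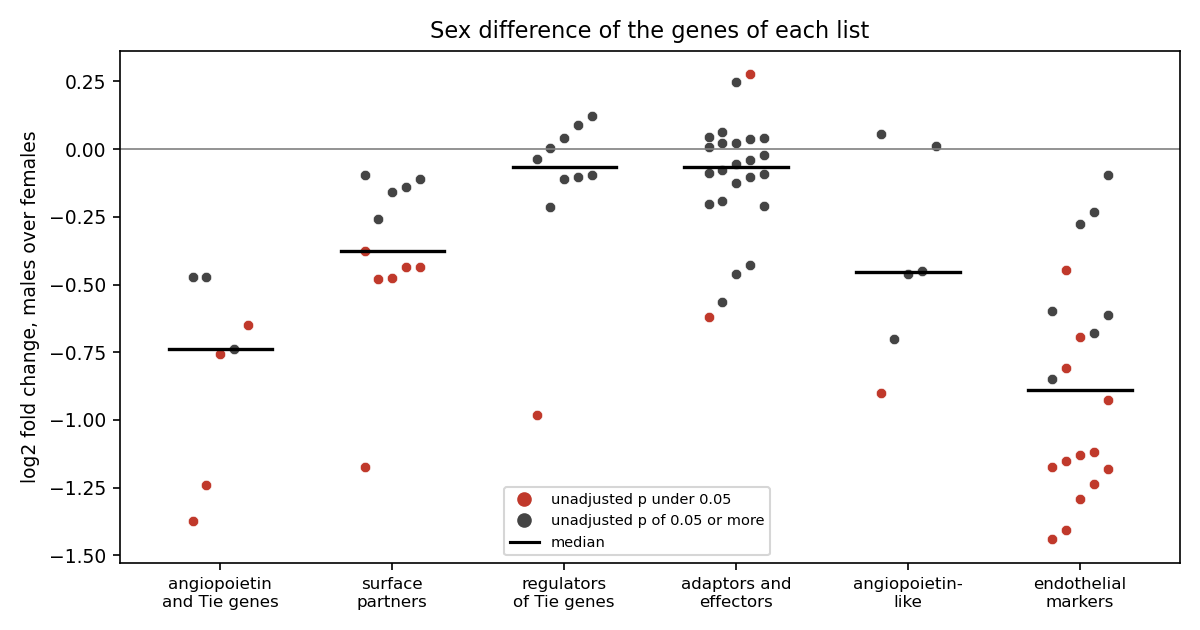
Log2 fold change of males over females for each tested gene of 6 lists, with the median as a bar. Red points have an unadjusted p under 0.05 in edgeR, and Cdh5 is in both the surface partner and the endothelial list. The medians are -0.74 for the angiopoietin and Tie genes, -0.38 for surface partners, -0.066 for regulators and for adaptors and effectors, -0.46 for angiopoietin-like genes and -0.89 for endothelial markers.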

How the data were processed

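The authors deposited whole-number counts of reads per Ensembl gene for 6 libraries and normalised none of them. The sources differ on how the counts were made. The methods name STAR on GRCm39 and a total RNA kit, whereas the submitters' processing notes name TopHat2 2.0.11, featureCounts and mm9 (NCBIM37), and the labels name a directional kit. Symbols, positions and exon lengths came from GENCODE M39 (GRCm39), in which 6918 of the 37991 identifiers have no entry, so a length can differ from the model that was counted.

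The test was edgeR's robust quasi-likelihood test (edgeR 4.0.16, R 4.3.3) with TMM scaling and sex as the only term. Low genes were removed by filterByExpr, and p-values of the remaining 19480 genes were adjusted by Benjamini-Hochberg. Standard errors (SE) were derived from the F statistic. The floor of 3 counts covers counting error only. Profiles used log2 CPM with a prior count of 2, and genes of at least 1 CPM were searched for likeness. Alternatives were DESeq2 1.42.0 (size factors, Wald test), total counts, no filter, at least 10 counts in every library, the replicate number as a block, each library left out, the endothelial marker sum as library size, 3 endothelial markers (Cdh5, Pecam1 and Emcn) and another gene length. The leave-one-out counts of members whose sexes do not overlap were added after seeing the data.

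Named genes were all members, the 5 genes most like Tek and Tie1, the leading gene of a cell type list, and from each pathway list the genes at an adjusted p under 0.05 with or without the block, the 3 with the smallest p and the highest per kb. Flt4, Kdr, Mmrn2, Stab2, Pecam1 and Mcph1 were named after their values were seen. Members and lists were chosen with earlier results of these data known.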

Additional observations from a re-analysis of the deposited data

How the results depend on the processing

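The number of members at an adjusted p under 0.05 was 0 in edgeR with all libraries, with each library left out, and under every other scaling and filter tried, and 2 (Tek and Ptprb) with DESeq2's Wald test. Over all genes it was 8, against 14 with total counts alone, 98 without a filter, 354 with DESeq2's Wald test and between 5 and 96 with 1 library left out (lowest without female replicate 2, highest without male replicate 3). For the other pathway genes it was 0, against 1 without a filter, 3 with DESeq2's Wald test, 4 (all higher in males, where 5011 of 19480 genes were called higher) with the endothelial marker sum and 0 to 1 with 1 library left out. Members whose sexes did not overlap numbered 3 to 7 with 1 library left out, 7 only without female replicate 2 (12.7% of all genes). Over all 6 such settings that share of all genes was 9.35% to 16.8%, against 7.29% with all libraries.

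With the replicate block, 2 members (Tek and Ptprb), 4 other pathway genes (Cdh5, Jup, Ptk2 and Epas1) and 428 genes in all passed, 2.2% of those tested and 1.06% lower in males, as did 12 of the 20 endothelial markers, all lower in males. The sample titles name no pairing or batch, and whether same-numbered libraries of the 2 sexes share one is not known. Their deviations from the mean of their sex correlated at 0.19, 0.040 and 0.30 across genes for numbers 1, 2 and 3. Each of libraries 1 and 3 of either sex correlated best with its own number, and so did female replicate 2, but male replicate 2 did so with female replicate 1.

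Scaled to the endothelial marker sum, the fitted log2 fold change turned positive for Tie1 (0.12), Angpt1 (0.28), Angpt2 (0.055) and Angpt4 (0.21). With Cdh5, Pecam1 and Emcn alone, the difference relative to the sum shifted by the same amount for all 7 members, to -0.19 for Tie1 and -0.31 for Svep1 from 0.11 and -0.012, a move of over 1 SD for these alone since their SDs are the smallest. With the longest transcript as length, Angpt2 took place 7 and Svep1 place 6, and the male ranges of Tie1 and Angpt1 overlapped. The difference in log2 ratio kept its sign with each library left out for all 5 ratios. Among uncalled pathway genes, the fitted log2 fold change spanned 0 with 1 library left out for Grb2 (-0.10 to 0.092), Klf2 (-0.099 to 0.19) and Angptl4 (-0.22 to 0.25), and Angptl4 had -0.020 with total counts alone. The causes were not tested. At these depths Angpt2 and Angpt4 rest on 55 to 207 counts a library.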
